A study of Mus musculus with 6 samples.

Results

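The hedgehog pathway was read from 9 genes: the ligand Shh, the receptor Ptch1, the co-receptors Gas1 and Boc, the ligand-binding inhibitor Hhip, the signal transducer Smo, and the transcription factors Gli1, Gli2 and Gli3. Every probe set that the platform annotation assigns to 1 of these symbols alone was taken, which gave 24 probe sets of 45037 on the array, for 9 of 18193 named genes. The RNA came from otic vesicles, the epithelial sacs that form the inner ear, microdissected from E11.5 mouse embryos. In both groups dispase (30 min at 37 °C) was used to strip the surrounding tissue before RNA was isolated. Mest-KO embryos were conditional knockouts of Tbx1, a T-box transcription factor gene, made by T-Cre, which expresses Cre under sequences of the early mesoderm gene T. Control embryos were T-Cre conditional Tbx1 heterozygotes. Both groups thus carried T-Cre and altered Tbx1 in the Cre lineage, and no wild-type or Cre-free group was analysed here. Each group had 3 arrays, and each array held RNA pooled from both ears of 3 embryos of 1 genotype, so that no value belongs to a single embryo. The labels call the 3 arrays biological replicates.

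Hedgehog proteins are secreted signals that bind Ptch1. In their absence Ptch1 holds Smo inactive and Gli3 is processed to a repressor. With ligand bound, Smo is released, Gli2 and Gli3 act as activators, and the cell switches on Gli1, Ptch1 and Hhip, which makes these genes usual readouts of pathway activity. In the mouse ear, Shh from the notochord and floor plate patterns the ventral, cochlear side of the vesicle, and hedgehog signalling also acts in the mesenchyme around it. In tissue RNA, fewer cells of a type and less RNA per cell cannot be told apart.

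The sequences shown here are those upstream of the Ptch1 and Hhip start sites, since both are response genes whose probe sets lay lower in Mest-KO. RefSeq promoter windows in build GRCm38.p6 were at hand for 6 of the 9 genes, Ptch1, Gli2, Gli3, Hhip, Smo and Gas1. The Ptch1 window covers chr13:63565736-63565985 on the minus strand, upstream of a start that lies inside the annotated gene, and the Hhip window covers chr8:80058009-80058258 on the minus strand. Capitals mark the first 9-base stretch, read from the left, with the fewest mismatches to the Gli consensus GACCACCCA on either strand. Other stretches can have as few, as in the Ptch1 window.
Ptch1: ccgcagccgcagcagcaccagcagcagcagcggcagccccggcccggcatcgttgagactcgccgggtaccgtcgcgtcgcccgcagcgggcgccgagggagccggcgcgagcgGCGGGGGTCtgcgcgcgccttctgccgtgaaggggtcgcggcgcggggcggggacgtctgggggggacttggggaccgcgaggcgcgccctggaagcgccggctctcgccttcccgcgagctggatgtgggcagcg
Hhip: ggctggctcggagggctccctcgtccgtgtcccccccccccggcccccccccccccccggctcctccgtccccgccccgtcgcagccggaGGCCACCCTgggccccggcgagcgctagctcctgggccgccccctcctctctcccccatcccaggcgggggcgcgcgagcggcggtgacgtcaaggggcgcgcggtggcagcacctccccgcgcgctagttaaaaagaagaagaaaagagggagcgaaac

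None of the 6 windows held GACCACCCA or its reverse complement TGGGTGGTC, against 0.225% of 32851 promoter windows of 250 bases. The fewest mismatches were 3 upstream of Ptch1, a likeness found in 98.6% of all windows, and 2 upstream of Hhip, found in 51.8% of them. A stretch this close is thus common, and these letters say nothing about binding. The Ptch1 window was 78.4% G or C and the Hhip window 76.0%.

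Intensities are given as deposited, on a linear scale on which each array has a trimmed mean of 500, and differences are Mest-KO minus control on the log2 scale after quantile normalization, each with its standard error from limma. Probe sets entered the test with a mean over the 40th percentile, which is an intensity of 34.4. Of the 24 probe sets 15 passed this filter, which left Shh with none and the other 8 genes with 1 to 3 each. The 9 dimmer probe sets were read from a fit without the filter. None of the 15 passed at a Benjamini-Hochberg adjusted p under 0.05 in limma, where 0 of 27022 probe sets were called (0%), and none passed when the variance prior followed expression level, where 14 were called (0.0518%). The number of arrays limits the precision.

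At an unadjusted p under 0.05 limma found 2 of the 15 probe sets, 1 each for Gli1 and Ptch1, both lower in Mest-KO, against 3.98% of all probe sets tested with 2.25% lower and 1.74% higher. The groups did not overlap at 4 of the 15, against 9.37% of all. The 3 lower ones read Gli1, Ptch1 and Gli3 (5.20% of all), and the higher one read Gas1 (4.17%). Over the 15 probe sets 8 lay lower and 7 higher, with a median log2 difference of -0.036. Over all probe sets tested 51.7% lay lower, with a median of -0.0072. This tally depended on the scaling: after median centring 14 of the same 15 lay lower and 1 higher, where 73.0% of all probe sets lay lower. The differences past the unadjusted threshold lay at 2 response genes, while the response gene Hhip had an unadjusted limma p of 0.260 at its tested probe set.

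**Figure D1:**
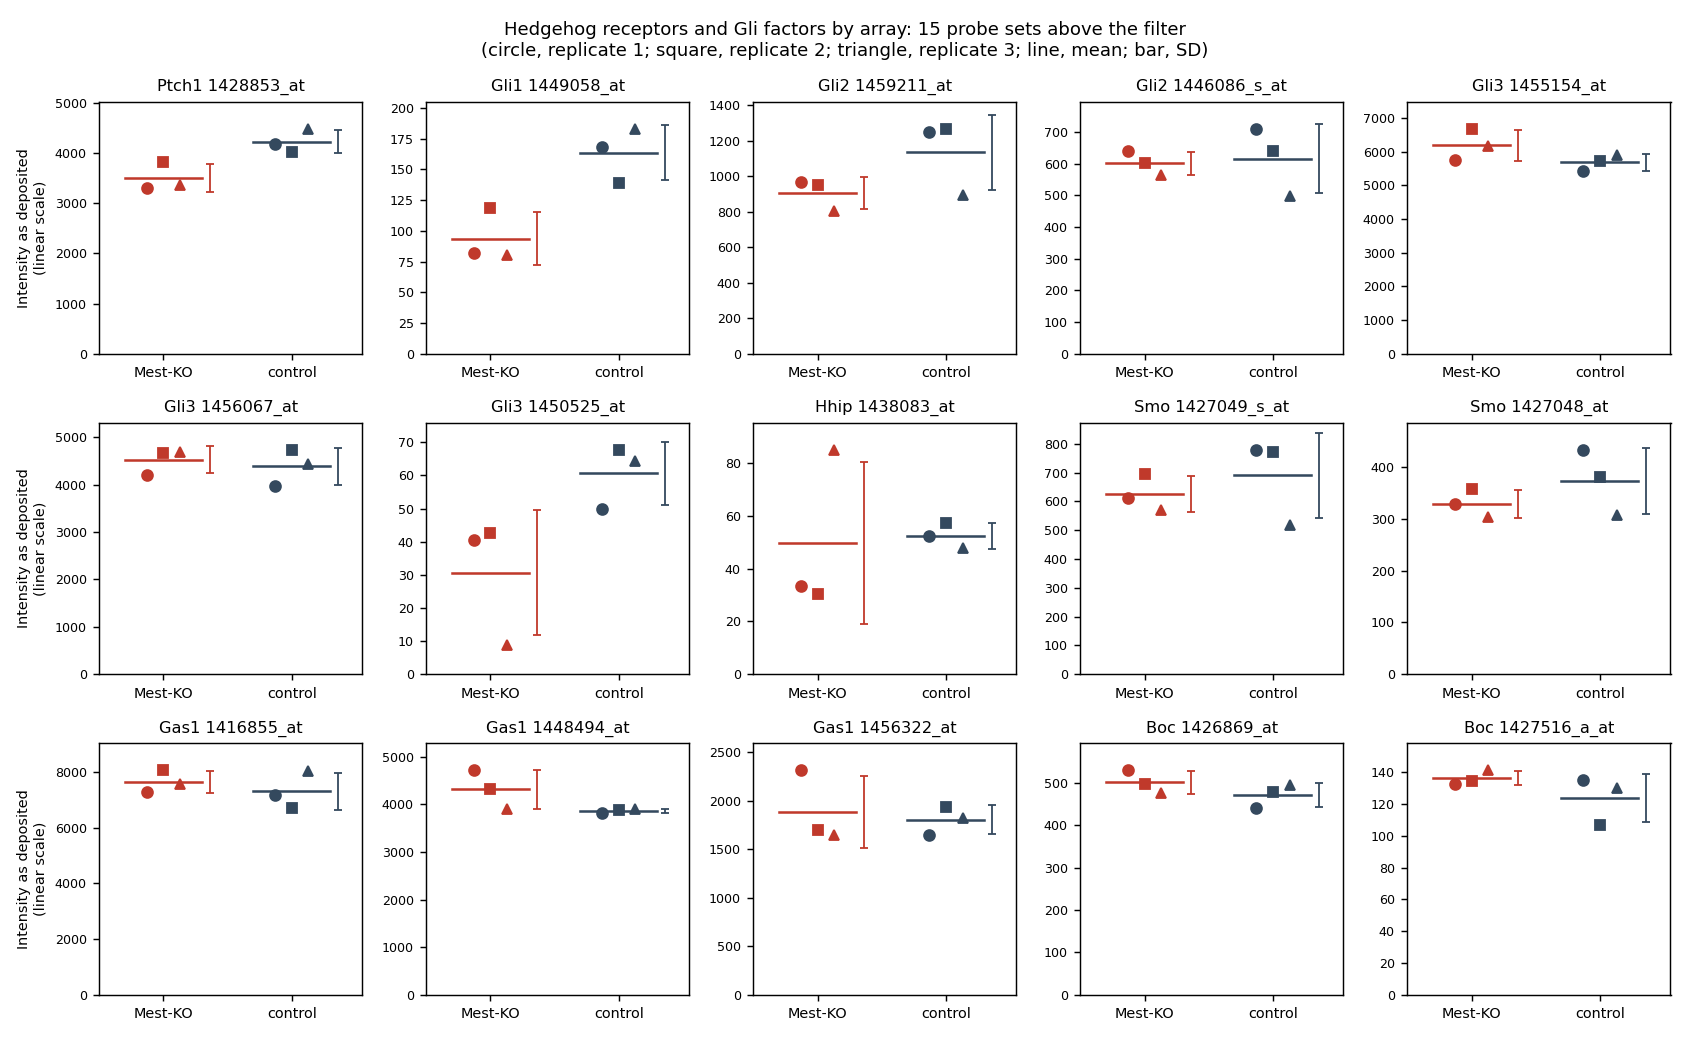
Deposited intensity (y, linear scale from 0) of the 15 probe sets above the filter, by group (x); each symbol is 1 array, horizontal lines are group means and bars are SDs (n = 3). All 3 Mest-KO arrays lie below all 3 control arrays for Gli1 1449058_at, Ptch1 1428853_at and the dim Gli3 1450525_at, and above them for Gas1 1448494_at. The other panels overlap.

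Gli1 encodes a zinc finger activator whose own transcription depends on hedgehog input, and it was read by 1 probe set, 1449058_at. Its intensity was 81.7, 119 and 80.3 in the Mest-KO pools, against 169, 139 and 183 in the control pools. The highest Mest-KO pool lay below the lowest control pool, and the means were 93.6 ± 21.7 in Mest-KO and 164 ± 22.3 in control (SD, n = 3 each). On the normalized scale Gli1 was 1.96-fold lower in Mest-KO (log2 difference -0.97, SE 0.250, 95% confidence interval -1.58 to -0.36). The unadjusted limma p was 0.00780, rank 164 among 27022 probe sets, and the limma adjusted p was 0.969, or 0.865 with the variance trend, and between 0.719 and 0.9998 over the alternatives. An exact two-sided permutation test over the 6 arrays gave p = 0.1, the smallest that 3 against 3 arrays allow.

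The array Mest-KO 3 weighed on the size of this difference, with a Gli1 value of 80.3 as deposited and 60.6 after quantile normalization. On this array 18.6% of probe sets read under 16, while on each of the others 23.5% to 26.9% did. Without Mest-KO 3 the Gli1 difference was -0.73, with the deposited scaling alone it was -0.82, and without Mest-KO 2, the highest pool of its group, it was -1.21. Gli1 stayed lower in Mest-KO under each of 18 alternatives, and its unadjusted limma p ran from 0.00149 to 0.0447 among them. Leaving out the filter, or changing the floor, variance prior, block, unit of the fit or threshold, left the difference at -0.97. Such settings could not turn its sign. With the filter at the 60th percentile the Gli1 probe set was too dim to be tested, so the 18 alternatives do not include that setting. Xist read 16.1 in Mest-KO 1 on its brightest probe set, against 2331 to 5034 on the others, and the Y-linked Eif2s3y read 12.1 in control 2, against 1373 to 2663. Leaving out these 2 pools, each with RNA of 1 sex by these genes, the Gli1 difference was -1.04. On the brightest Xist probe set the remaining pools overlapped, at 3207 and 2331 in Mest-KO and 4118 and 2594 in control. Those of Eif2s3y overlapped too, at 2038 and 2210 in Mest-KO and 1373 and 2590 in control. At the dimmer Xist 1427262_at they did not, with 429 and 396 in Mest-KO against 914 and 613 in control, nor at 1427263_at. The sex balance of these pools may thus still differ.

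Ptch1, the receptor and itself a hedgehog response gene, had 1 bright probe set, 1428853_at. It read 3315, 3822 and 3373 in the Mest-KO pools, against 4193, 4015 and 4482 in the control pools. These groups did not overlap either, and the means were 3503 ± 278 in Mest-KO and 4230 ± 235 in control (SD, n = 3 each). The difference was small in size, 1.19-fold lower in Mest-KO (log2 -0.25, SE 0.101, 95% confidence interval -0.50 to -0.0072), with an unadjusted limma p of 0.0453 and a limma adjusted p of 0.969. It lay between -0.31 and -0.22 when any 1 array was left out, with unadjusted limma p-values of 0.0364 to 0.128 (under 0.05 without Mest-KO 2 alone), and at -0.26 between the pools of both sexes. Over all alternatives the unadjusted limma p ran from 0.00720, with the robust trend, to 0.405, for probe sets averaged by gene. It was 0.0861 without the filter and 0.116 between the pools of both sexes. The other 2 Ptch1 probe sets were below the filter. The probe set 1439663_at read 22.8, 16.3 and 68.0 in Mest-KO and 44.7, 17.9 and 42.7 in control, and 1450824_at read at most 14.0 on any array, so that both overlapped between the groups.

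**Figure D2:**
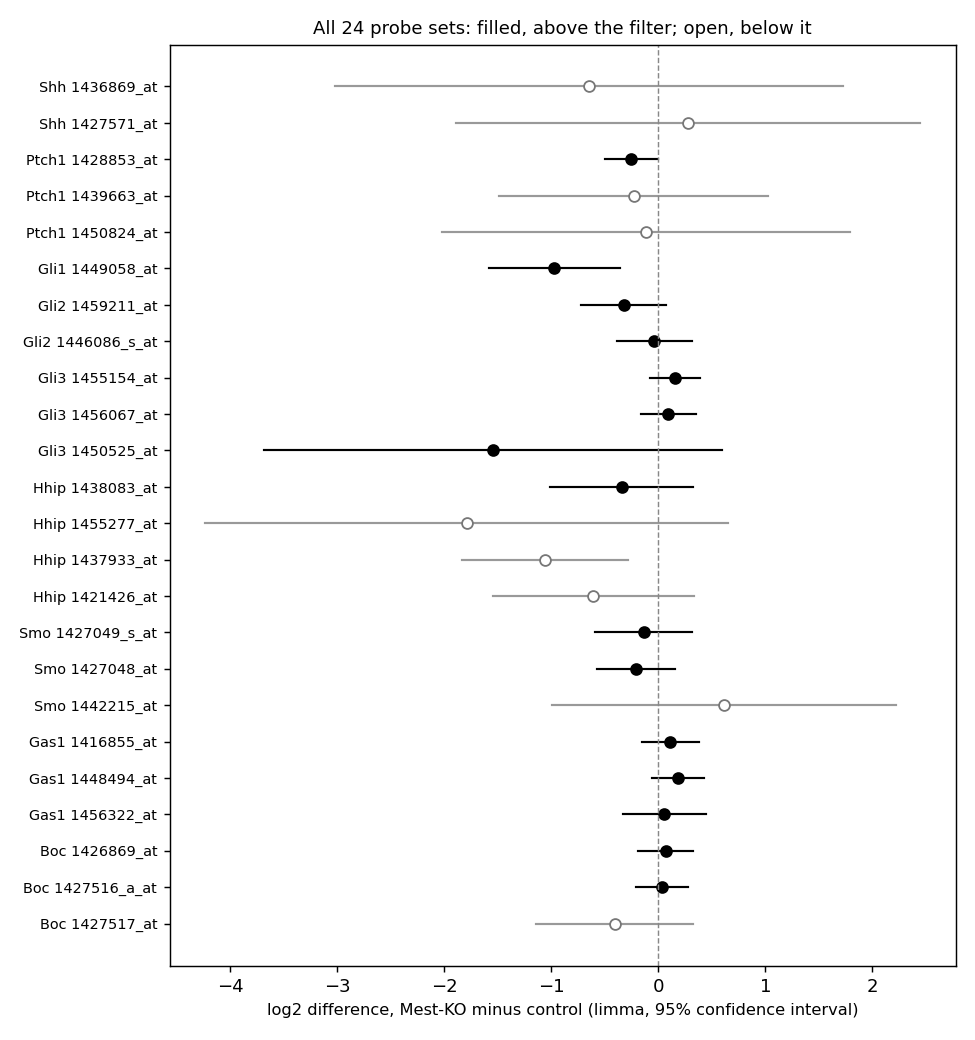
Log2 difference, Mest-KO minus control (x), of all 24 probe sets (y), with 95% confidence intervals of the limma fit; filled points passed the filter and open points did not. The intervals of Gli1 1449058_at, Ptch1 1428853_at and the dim Hhip 1437933_at exclude 0 before adjustment, and the dim probe sets have the widest intervals.

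Hhip, a membrane protein that sequesters hedgehog ligands and is induced by them, had 4 probe sets, all dim, and all 4 lay lower in Mest-KO. The one above the filter, 1438083_at, read 33.5, 30.3 and 85.0 in Mest-KO and 52.2, 57.2 and 47.6 in control. Mest-KO 1 and 2 lay below the controls there and Mest-KO 3 above them, and the log2 difference was -0.34 (SE 0.275, limma adjusted p = 0.969). Without Mest-KO 3 it was -0.63, without Mest-KO 2 -0.15, between the pools of both sexes -0.12, and for the average of the gene's probe sets -0.95.

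Among the 3 dimmer Hhip probe sets, 1455277_at read 36.4, 32.6 and 7.84 in Mest-KO, against 69.2, 56.6 and 52.1 in control. Its groups did not overlap, and the log2 difference was -1.79 (SE 0.962), or -0.71 without Mest-KO 3. At 1437933_at the values were 9.56, 14.9 and 34.5 in Mest-KO and 36.9, 23.3 and 38.2 in control. On the log2 scale Mest-KO minus control was -1.06 (SE 0.306), with an unadjusted p of 0.0170 and an adjusted p of 0.9996 in limma without the filter. Here the groups overlapped as deposited, through Mest-KO 3, and not after normalization. At 1421426_at they overlapped, with 17.5, 11.7 and 13.3 in Mest-KO and 18.6, 24.1 and 16.2 in control. Of all 45037 probe sets 8.85% did not overlap after normalization, and 4.68% had all Mest-KO values below the controls.

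Shh itself was close to the floor of the array. The probe set 1436869_at read 13.2, 22.0 and 10.4 in Mest-KO and 64.9, 6.69 and 17.1 in control, and 1427571_at read at most 14.0 on any array. Control 1 was the only pool in which either exceeded the filter's intensity, and the log2 differences, -0.65 (SE 0.937) and 0.28 (SE 0.855), pointed in opposite directions. Ihh and Dhh, the other hedgehog ligands, were also below the filter at their 3 probe sets.

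The co-receptors were measured well and differed little. Gas1, a membrane-anchored protein that helps Ptch1 bind ligand, read 7259, 8056 and 7568 in Mest-KO and 7168, 6710 and 8017 in control at 1416855_at, where the groups overlapped. It differed by 0.11 on the log2 scale (SE 0.109, 95% confidence interval -0.15 to 0.38). At 1448494_at it read 4720, 4329 and 3911 in Mest-KO and 3822, 3892 and 3896 in control. Each Mest-KO pool lay above each control pool there, Mest-KO 3 by a small margin, for a log2 difference of 0.18 (SE 0.0997, limma adjusted p = 0.969). With median centring this difference was 0.0048, and that of 1416855_at was -0.084. The third Gas1 probe set, 1456322_at, overlapped between the groups and gave 0.058 (SE 0.158).

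Boc, a co-receptor of the immunoglobulin superfamily, read 530, 498 and 476 in Mest-KO and 440, 478 and 495 in control at 1426869_at, a log2 difference of 0.070 (SE 0.105). Its second probe set, 1427516_a_at, gave 0.034 (SE 0.0992). The third, 1427517_at, read at most 6.90 on any array and gave -0.41 (SE 0.289). The 95% confidence intervals of the first 2, -0.19 to 0.33 and -0.21 to 0.28, bound the differences these arrays allow.

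Smo, the seven-pass membrane protein that carries the signal inward, was read by 2 probe sets above the filter. At 1427048_at the values were 328, 357 and 303 in Mest-KO and 434, 381 and 307 in control, and at 1427049_s_at they were 611, 694 and 571 in Mest-KO and 780, 771 and 519 in control. Control 1 and control 2 lay above every Mest-KO pool at both, while control 3 lay among or below them. The log2 differences were -0.21 (SE 0.151) and -0.14 (SE 0.185), and without control 3 they were -0.34 and -0.32. Without control 1 they were -0.12 and -0.048, and the second was -0.041 without control 2 and -0.015 between the pools of both sexes. The dim probe set 1442215_at gave 0.61 (SE 0.636).

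Gli2, the main activator downstream of Smo, showed a like pattern over the arrays. At 1459211_at it read 966, 951 and 803 in Mest-KO and 1249, 1267 and 892 in control, so that control 3 again lay within the Mest-KO range. The log2 difference was -0.32 (SE 0.163, limma adjusted p = 0.969), and with 1 array left out it ran from -0.48, without control 3, to -0.24. At 1446086_s_at it read 638, 601 and 565 in Mest-KO and 709, 641 and 497 in control, with a difference of -0.036 (SE 0.146). Both probe sets are linked to the same transcript accession in the platform annotation, and the second carries the suffix that Affymetrix gives to probe sets shared between transcripts.

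Gli3, the main repressor of the family, was bright at 2 probe sets. At 1455154_at it read 5754, 6668 and 6154 in Mest-KO and 5412, 5719 and 5901 in control, and at 1456067_at 4198, 4679 and 4701 in Mest-KO and 3981, 4740 and 4434 in control. Both overlapped, with log2 differences of 0.16 (SE 0.0964) and 0.092 (SE 0.105). The signs of both turned with median centring, to -0.026 and -0.10. The third, 1450525_at, read 40.6, 42.5 and 8.92 in Mest-KO and 49.8, 67.8 and 64.4 in control. These groups did not overlap, and the log2 difference was -1.55 (SE 0.879), or -0.48 without Mest-KO 3. The Gli3 probe sets thus disagreed in direction, and the one that lay lower was dim.

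Of the other pathway genes, 68 symbols in 6 lists, 61 had a probe set and 49 had one above the filter, in 103 probe sets. In limma none of the 103 passed over all probe sets, 7 had an unadjusted p under 0.05 (6.80%, against 3.98% of all tested) and 15 did not overlap between the groups (14.6%, against 9.37%). With the variance trend 1 passed, which read Gata3. Of the 103, 53 lay higher and 50 lower, with a median of 0.0020.

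Among genes for ligand release and binding, 5 probe sets were tested and 1 had an unadjusted p under 0.05 (20%, against 3.98% of all tested). It read Scube3, of a family of secreted proteins of which Scube2 helps release hedgehog from cells, at 2278, 2193 and 2101 in Mest-KO and 1852, 1826 and 1605 in control. Every Mest-KO pool lay above every control pool (log2 difference 0.32, SE 0.0994, limma adjusted p = 0.969). Among co-receptors, with 4 probe sets of Cdon and Lrp2 tested, none had an unadjusted p under 0.05, and Cdon, a relative of Boc, had the smallest, with a difference of 0.15 (SE 0.102). The cytoplasmic regulators of Gli proteins had 39 probe sets tested and none under 0.05, where the smallest belonged to Prkaca, a catalytic subunit of protein kinase A, at 0.22 (SE 0.0989) on 1447720_x_at and -0.027 on its second probe set.

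Of 27 probe sets for genes of the primary cilium, the organelle in which Smo signals, 2 had an unadjusted p under 0.05 (7.41%, against 3.98% of all tested). Both read Ift80, an intraflagellar transport protein. They read 125, 121 and 170 in Mest-KO against 101, 87.1 and 102 in control, and 2042, 2352 and 2291 in Mest-KO against 1847, 1792 and 1943 in control. Neither pair of groups overlapped, and the log2 differences were 0.40 (SE 0.115) and 0.26 (SE 0.104), with limma adjusted p = 0.969 for both.

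Of 22 probe sets for other genes known to respond to hedgehog in some tissue, 2 had an unadjusted p under 0.05 (9.09%, against 3.98% of all tested). Both lay lower in Mest-KO, as did 2.25% of all. They read Sall1, a zinc finger gene, with a difference of -0.44 (SE 0.137) on 1450489_at, and Bcl2, a survival gene, with -0.31 (SE 0.106) on 1457687_at. The brighter Sall1 probe set gave 0.070 and the other Bcl2 probe sets above the filter gave -0.23, -0.098 and -0.19. In the ventral otic list, 5 of 6 probe sets lay lower, where 51.7% of all tested did, with a median of -0.25. Gata3, a transcription factor gene needed for cochlear development, read 1123, 915 and 1123 in Mest-KO and 2170, 2074 and 2146 in control, a log2 difference of -1.02 (SE 0.115, limma adjusted p = 0.213, or 0.00311 with the trend). Eya1, a transcription cofactor gene, gave -0.34 (SE 0.139) on 1421727_at and -0.078 on its brightest probe set, so that the low value was not shared by the probe sets of the gene.

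**Figure D3:**
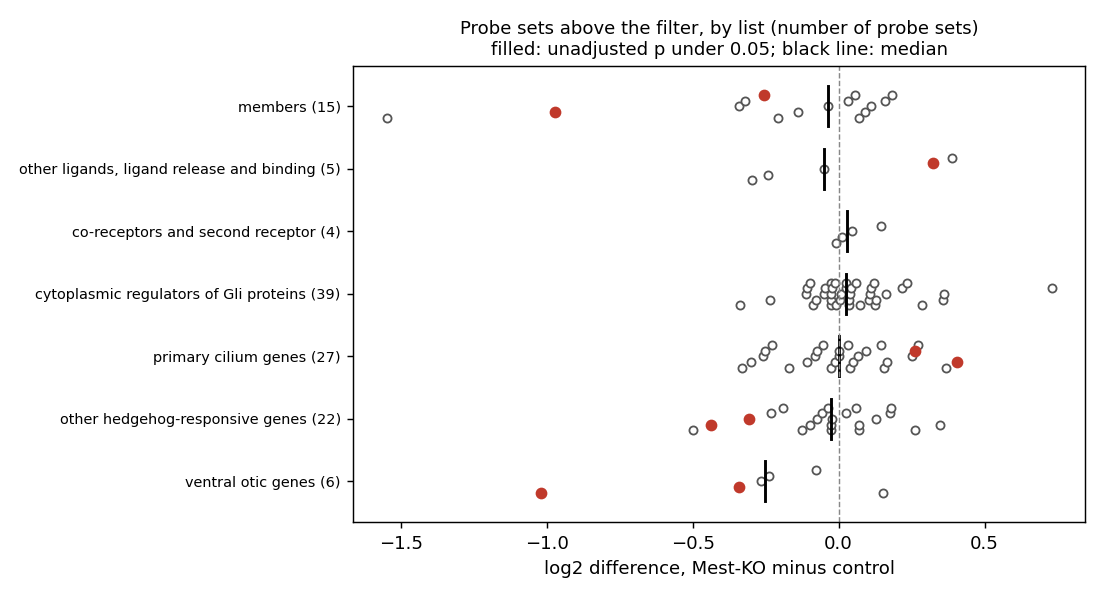
Log2 difference, Mest-KO minus control (x), of the probe sets above the filter in each list (y, number of probe sets in brackets); filled points had an unadjusted limma p under 0.05 and black lines are medians. The medians of the lists lie near 0 apart from the ventral otic genes at -0.25, and Gata3 at -1.02 lies farthest to the left outside the members.

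The profile of Gli1 over the 6 arrays was set against those of 12461 other genes above the filter, by the root mean square difference of log2 values centred on each gene's mean. The 5 closest were Dleu7 (0.156), Sptb (0.163), Kdelr3 (0.194), Art3 (0.201) and Per2 (0.203). All 5 had a lower mean in Mest-KO, which follows from their choice by likeness to Gli1 on these same arrays. The log2 difference was -0.87 for Dleu7 and -0.67 for Art3, whose groups overlapped. Among the members Ptch1 (0.436) ranked 503 and Gli2 (0.451) ranked 638, while Gli3 (0.630) ranked 9272 and Hhip (0.683) ranked 10722. A flat profile would lie at 0.566, and 5035 genes lay closer to Gli1 than that, so the likeness of Ptch1 and Gli2 is modest.

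Markers of the dissected tissue were compared between arrays beside the Gli1 and Ptch1 values. Oc90, Epcam and Cdh1, listed here as markers of the otic epithelium, were above the filter. The summed normalized intensity of the 12 epithelial markers ran from 37540 to 40800 in Mest-KO and from 38370 to 40630 in control. For the 12 markers of periotic mesenchyme, a tissue that responds to hedgehog as well, the sum was 3142, 6975 and 4813 in Mest-KO and 5507, 4112 and 2912 in control. The control pool with the smallest mesenchyme sum, control 3, had the highest Gli1 and Ptch1 values of all pools, and Mest-KO 2, with the largest sum, had the highest of its group. Of the 12 mesenchyme markers 9 lay higher and 3 lower in Mest-KO, and their part in the Gli1 and Ptch1 differences was not tested.

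Markers of the tissues beside the ear that make Shh were partly above the filter. Of the 6 floor plate and notochord genes with a probe set 3 passed it, among them Spon1, a secreted floor plate protein, at 665 ± 188 in Mest-KO and 745 ± 156 in control (SD, n = 3 each). Foxa2, which marks floor plate and notochord, read 1.38, 2.53 and 45.4 in Mest-KO and 4.34, 3.39 and 1.59 in control, with a value above the filter's intensity in Mest-KO 3 alone, and the ventral neural tube markers Nkx2-2 and Olig2 were below the filter, while Nkx6-1 was above it. The summed normalized intensity of the floor plate and notochord markers ran from 926.5 to 1453 in Mest-KO and from 1201 to 1506 in control. That of the 8 hindbrain neuroepithelium markers, with Nkx2-2, Olig2 and Nkx6-1 among them, ran from 258.2 to 289.2 in Mest-KO and from 259.5 to 458.6 in control. Of these 8, 3 passed the filter, and 4 had a higher mean in Mest-KO and 4 a lower one. The part of both lists in the differences was not tested.

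Other lists did separate the groups in part. The sum of the 7 pharyngeal and surface epithelium markers lay lower in every Mest-KO pool, at 4109 to 4637 in Mest-KO and 4762 to 4809 in control. A linear sum weighs bright genes most, and the mean log2 value of the same 7 genes went the other way, 0.513 higher in Mest-KO. Of these 7 genes 4 had a higher mean in Mest-KO and 3 a lower one. The defining markers Krt5 and Krt14 were below the filter, while Trp63 was above it, with a log2 difference of 0.70 (SE 0.511). The ganglion marker Neurod1, a neurogenic transcription factor gene, lay higher in each Mest-KO pool (log2 difference 0.57, SE 0.151, limma adjusted p = 0.969), while the sums of the 8 ganglion markers overlapped, at 7385 to 7953 in Mest-KO and 7261 to 7426 in control. The part of these markers in the Gli1 and Ptch1 differences was not tested.

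**Figure D4:**
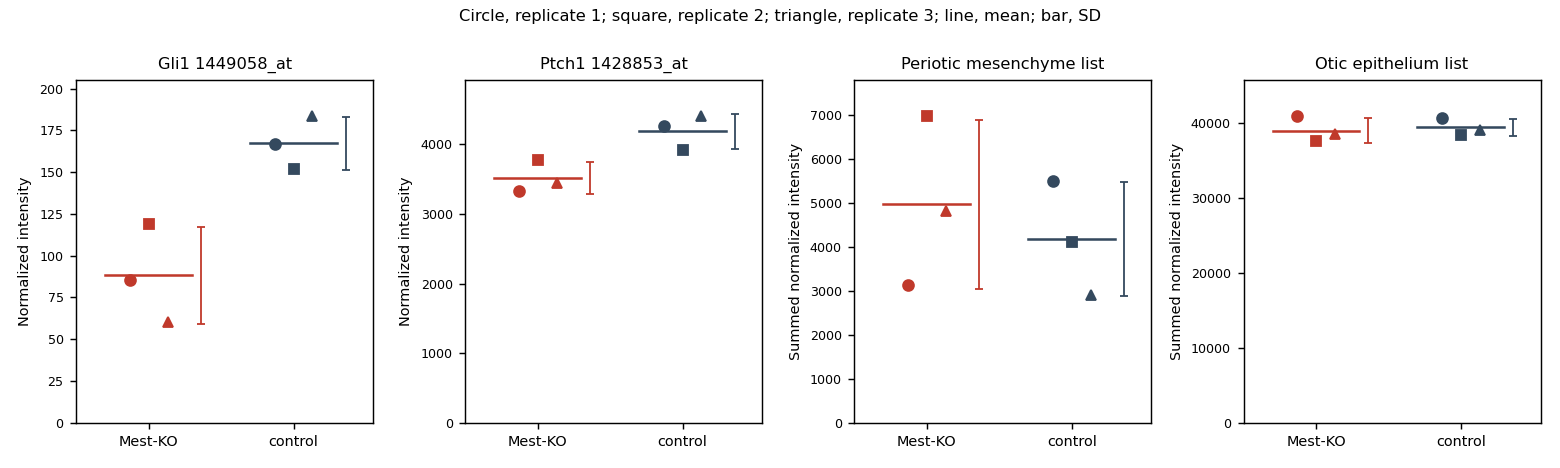
Normalized intensity of Gli1 and Ptch1, and summed normalized intensity of the mesenchyme and epithelium markers (y, linear scale from 0), by group (x); each symbol is 1 array, lines are means and bars SDs (n = 3). Gli1 and Ptch1 do not overlap between the groups, while the mesenchyme and epithelium sums do.

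Tbx1, the targeted gene, read 910, 704 and 713 in Mest-KO and 898, 690 and 766 in control (log2 difference -0.027, SE 0.146). T-Cre acts in mesoderm and the vesicle is epithelial, and where the probe set lies against the removed exons is not known here, so these values are no check of the genotypes. Mest-KO 3 stood apart. On the leading principal component (35.0% of variance) it scored 64.6, while the others scored -20.0 to -6.65, and its median intensity was 90.96 while theirs were 62.1 to 71.0.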

How the data were processed

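The deposited table holds 1 linear intensity per probe set and array. Expression Console 1.1 of Affymetrix is named in the submitters' processing notes, and the values show a trimmed mean of 500 on each array (2% from each end). How probes were summarised and background was removed is not stated in the sources at hand. Of 45101 probe sets 64 controls were left out. The platform annotation gave 1 symbol to 34945 of the rest, updated through RefSeq identifiers for 34741. A floor of 1 was applied before log2 transformation and quantile normalization. Probe sets with a mean above the 40th percentile (27022) entered limma 3.58.1 (R 4.3.3), fitted with lmFit and eBayes without a trend or covariates and with Benjamini-Hochberg adjustment. The fit was tested on simulated data. Figures were drawn with matplotlib 3.10.9.

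The members, the lists of pathway genes and markers, and the tests were chosen with earlier results of these data known. All probe sets of the members are named. From each other list those with an unadjusted p under 0.05 are named, at most 4, or else the one with the smallest p, together with Tbx1, the 5 genes closest to Gli1 and defining markers; any other gene was chosen after its values were seen. Alternatives covered the filter, scaling, floor, variance prior, weights per array, a block on the replicate number, the unit of the fit and each array left out.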

Additional observations from a re-analysis of the deposited data

How the results depend on the processing

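With 3 arrays a group, dim probe sets moved with single arrays. No member passed the adjusted threshold under any of the settings tried. The count over all probe sets, 0 in limma with 1076 at an unadjusted p under 0.05, came to 1 without a filter, 9 if filtered at the 60th percentile, 15 after median centring, 14 under the variance trend, 17 if that was also robust, and 1 at a threshold of 0.10. With the trend and an array left out, chosen after seeing the data, it was 7 to 14: 14, 11 and 13 without Mest-KO 1, 2 and 3, and 7, 7 and 9 without control 1, 2 and 3. Median centring moved the median of all differences to -0.12, with 73.0% of probe sets lower against 51.7%, and with the deposited scaling alone 44.2% were lower, a median of 0.026. In the pathway lists 1 probe set, Gata3, passed at the 60th percentile filter and under the trend, robust or not, in place of 0.

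The counts of members at an unadjusted p under 0.05 and of members without overlap were added after seeing the data. The first, 2 as reported, was 1 at the 60th percentile filter, under array weights, between the pools of both sexes or for probe sets averaged by gene, 5 with the trend (robust or not), and 1 to 3 with an array left out, with 1 without Mest-KO 1, control 1 or control 2. Under the trend 3 of the 5 lay lower and 2 higher (Gli3 1455154_at and Gas1 1448494_at), and 4.65% of all probe sets were under 0.05; over these settings that share ran from 2.99% to 6.84%. The second, 4 as reported, was 2 at the 60th percentile filter or for the brightest probe set of each gene, 1 for probe sets averaged by gene, 7 between the pools of both sexes, and 4 to 9 with an array left out, with 7 without Mest-KO 1 and 9 without control 3. With fewer arrays more groups separate by construction: 35.4% of all probe sets did between the pools of both sexes, 25.6% without Mest-KO 1 and 20.0% without control 3, against 9.37%. The 60th percentile filter left 11 member probe sets to test, and that of Gli1 was not among them.

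Of 401 member values under alternatives 28 had the other sign, and 11 of 24 probe sets, Gli1 1449058_at, Ptch1 1428853_at and all 4 of Hhip among them, kept theirs throughout. Changes of filter, variance prior, block or threshold leave a difference as it is, so the values under them could not turn sign. Median centring gave -0.026 and -0.10 for Gli3 1455154_at and 1456067_at, -0.084 and -0.099 for Gas1 1416855_at and 1456322_at, and -0.060 and -0.0057 for Boc 1426869_at and 1427516_a_at. Averaging by gene gave -0.43 for Gli3, 0.089 for Smo and -0.10 for Boc. The pools of both sexes gave -0.23 for Shh 1427571_at, 0.81 for Ptch1 1450824_at, -0.043 for Gas1 1456322_at and -0.039 for Boc 1427516_a_at, and the deposited scaling gave 0.071 for Ptch1 1450824_at. With an array left out, Shh ran from -1.38 to 0.16 (1436869_at) and from -0.21 to 1.23 (1427571_at), Ptch1 from -0.61 to 0.078 (1439663_at) and from -0.85 to 0.43 (1450824_at), Gli2 1446086_s_at from -0.18 to 0.058, Smo 1442215_at from -0.048 to 1.07, Gas1 1456322_at from -0.095 to 0.14 and Boc 1427516_a_at from -0.017 to 0.078. The cause was not tested.

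Same-numbered arrays did not deviate together (correlations of -0.0409, -0.00655 and 0.0329 for numbers 1 to 3). These values gave no sign that the numbers pair the samples, but with 3 arrays a group they cannot exclude it. With the replicate number as a block 0 probe sets passed, and the unadjusted limma p was 0.0227 for Gli1 and 0.101 for Ptch1.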

Other observations

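Some further values beside the members are given here, and their genes were singled out after the values were seen. The 6 endothelial markers, 3 of them above the filter, all lay higher in Mest-KO. Their summed normalized intensity was 318 to 449.5 in Mest-KO and 278 to 326 in control, ranges that overlap. The mean log2 value of these 6 genes was 0.601 higher in Mest-KO, and their part in the Gli1 and Ptch1 differences was not tested. Pecam1, an adhesion protein of endothelium, read 28.3, 20.2 and 34.8 in Mest-KO and 6.59, 8.52 and 11.2 in control, with a mean below the filter. Hhat, the enzyme that adds palmitate to hedgehog proteins, gave opposite differences at its 2 probe sets, 0.39 (SE 0.187) at the brighter one and -2.89 (SE 0.950) at one below the filter.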
